A study of Caenorhabditis elegans with 3 samples.

Results

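Peaks of EGL-27 beside the genes of small nuclear RNAs (snRNAs) and small nucleolar RNAs (snoRNAs) were taken from a pooled peak list of a ChIP-seq experiment in Caenorhabditis elegans. A peak was a member when its summit lay within 1000 bp of the annotated start of an snRNA or snoRNA gene on a nuclear chromosome. The sls-1 and sls-2 spliced leader genes, 30 genes in all, were left out. The rule found 394 member peaks among the 30000 nuclear peaks of the pooled list, or 1.31%, which merged into 338 separate regions. They lay beside 285 of 445 RNA genes (99 snRNA and 346 snoRNA genes). The rule used positions alone and no measured value.

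The 3 libraries form a single group, biological replicates 1, 2 and 4, with no second condition. All came from strain OP177, which carries the mutation unc-119(ed3) and the transgene wgIs177, from which EGL-27 is made with a GFP-FLAG tag at its C-terminus. Whole L4 larvae of mixed sex were used, so every tissue is averaged in each library, and the labels list the antibody as egl-27. No read numbers were used, so depth is unknown, and each interval below is a 95% exact binomial interval that covers counting error over peaks or genes only. Neighbouring peaks and genes are not independent of each other. The pooled list is, by its deposited name, an input for a reproducibility procedure that holds background as well as peaks, so a member is not by itself an EGL-27 binding site.

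EGL-27 belongs with the MTA proteins of vertebrates, which are subunits of the NuRD chromatin remodelling complex. The snRNAs are the RNA parts of the spliceosome and are read from short genes of their own. The snoRNAs guide chemical modification of ribosomal and other RNAs: those with C and D boxes guide methylation of the ribose, and those with H and ACA boxes guide the change of uridine to pseudouridine. Many snoRNAs are cut from introns of a host gene, often a gene for a ribosomal protein or another part of the translation machinery, and others have a promoter of their own. RNA polymerase III reads tRNA genes from internal promoter elements called the A box and the B box, of which the B box is bound by the factor TFIIIC. In budding yeast a snoRNA gene is also read by RNA polymerase III from such elements.

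Several members close to a snoRNA start held the B box letters. They are shown first because these letters stood just upstream of the RNA in a set of snoRNA genes described below, to which 4 of the 5 genes shown belong. In C51F7.4 the match lies inside the RNA, 65 bp past its start. Each line gives the plus strand of WBcel235 (the same assembly as ce11, RefSeq sequence) for 100 bp to each side of the summit, with matches to GTTCGANNC or its reverse complement in capitals. The 5 are those with the highest pooled signal among members on chromosomes II to V or X that were within 100 bp of the start, had a partner in 2 or more libraries and whose window touched no annotated untranslated region.
C51F7.4 (chromosome V, 12303515 to 12303715): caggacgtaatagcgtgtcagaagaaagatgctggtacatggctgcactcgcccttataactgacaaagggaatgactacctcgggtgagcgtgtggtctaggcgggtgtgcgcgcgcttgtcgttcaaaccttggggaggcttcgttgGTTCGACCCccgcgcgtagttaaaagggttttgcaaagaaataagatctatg
F30H5.4 (chromosome III, 502632 to 502832): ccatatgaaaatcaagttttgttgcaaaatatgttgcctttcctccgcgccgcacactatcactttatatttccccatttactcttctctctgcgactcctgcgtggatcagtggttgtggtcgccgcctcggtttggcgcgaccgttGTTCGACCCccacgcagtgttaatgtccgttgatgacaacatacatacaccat
C41C4.11 (chromosome II, 8107162 to 8107362): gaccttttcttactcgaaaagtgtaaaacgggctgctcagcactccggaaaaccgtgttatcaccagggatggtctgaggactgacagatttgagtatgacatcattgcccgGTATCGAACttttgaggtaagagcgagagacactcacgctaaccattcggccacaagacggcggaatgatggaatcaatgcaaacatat
F32E10.10 (chromosome IV, 7574035 to 7574235): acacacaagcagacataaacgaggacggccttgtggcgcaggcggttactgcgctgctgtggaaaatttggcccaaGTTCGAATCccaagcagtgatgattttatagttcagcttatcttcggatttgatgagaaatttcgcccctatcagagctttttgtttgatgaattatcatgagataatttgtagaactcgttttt
F11A10.9 (chromosome IV, 12086673 to 12086873): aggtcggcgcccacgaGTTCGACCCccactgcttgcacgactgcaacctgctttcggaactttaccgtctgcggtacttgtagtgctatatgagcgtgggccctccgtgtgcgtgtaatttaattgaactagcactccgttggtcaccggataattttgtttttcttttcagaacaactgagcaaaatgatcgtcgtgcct
C41C4.11 lies on the minus strand, and the other 4 genes lie on the plus strand.

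Members with a repeat of GA formed another set. The windows below are from members of high signal with partners in all 3 libraries, with GAGAGA or its reverse complement in capitals.
C34E11.20 (chromosome X, 11791683 to 11791883): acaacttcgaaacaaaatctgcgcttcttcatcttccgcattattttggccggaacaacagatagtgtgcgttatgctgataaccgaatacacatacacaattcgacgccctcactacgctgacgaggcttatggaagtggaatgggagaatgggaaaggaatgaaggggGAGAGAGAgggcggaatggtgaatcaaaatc
ZK20.9 (chromosome II, 11634259 to 11634459): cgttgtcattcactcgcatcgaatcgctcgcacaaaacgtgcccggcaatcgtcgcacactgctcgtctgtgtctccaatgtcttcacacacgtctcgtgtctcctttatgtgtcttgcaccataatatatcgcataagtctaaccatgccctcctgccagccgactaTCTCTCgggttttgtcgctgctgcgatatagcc
The last window has the RNA gene in capitals. C18A3.12 is a C and D box snoRNA gene whose member had its summit 2 bp from the start.
C18A3.12 (chromosome II, 5701600 to 5701740): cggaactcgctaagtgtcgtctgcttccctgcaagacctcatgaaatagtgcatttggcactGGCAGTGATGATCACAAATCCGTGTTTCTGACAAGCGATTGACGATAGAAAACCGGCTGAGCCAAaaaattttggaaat

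The snoRNA genes had pooled peaks at their starts more often than the snRNA genes did. A summit within 1000 bp was found for 239 of 346 snoRNA genes (69.1%, interval 63.9 to 73.9) and for 46 of 99 snRNA genes (46.5%, 36.4 to 56.8). The reach of the pooled list is wide: 46.1% of the nuclear genome lay within 1000 bp of a pooled summit, so the snRNA share was at the level of the genome in this list. Protein-coding genes stood at 51% and tRNA genes at 70.1%. With a reach of 100 bp the values were 17.9% of snoRNA genes, 9.09% of snRNA genes, 8.56% of protein-coding genes, 27.8% of tRNA genes and 6.01% of the genome. In the single-library lists the classes were closer in replicates 2 and 4. Within 100 bp, replicate 2 had summits at 10.1% of snRNA and 11.3% of snoRNA genes (genome 2.74%), and replicate 4 at 6.06% and 7.23% (genome 1.33%). In replicate 1 the values were 1.01% and 10.7% (genome 1.94%).

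The summits gathered at the start itself. Between 200 and 1 bp upstream of snoRNA starts there were 17.1 summits per 100 genes, and in the first 200 bp downstream 14.2, beside a genome mean of 5.98 per window of that size. In the 200 bp farthest upstream, at 1000 bp, the value was 9.54. For snRNA genes only the first 200 bp downstream, which hold most of the RNA genes themselves, stood well above the genome mean, at 13.1 per 100 genes from 13 summits.

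**Figure D1:**
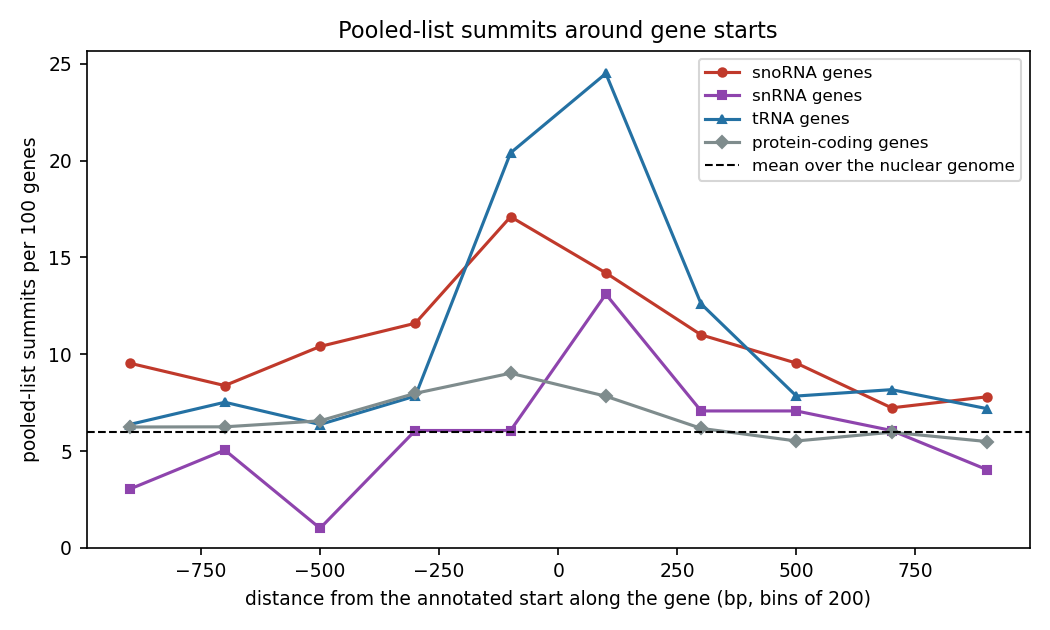
Pooled-list summits per 100 genes (vertical axis) in bins of 200 bp along the gene (horizontal axis, annotated start at 0, negative values upstream), for 4 gene classes, with the genome mean as a dashed line. The snoRNA curve reaches 17.1 just upstream of the start and the tRNA curve 24.5 just downstream, while protein-coding genes stay at or below 9.02.

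In the pooled list, the snoRNA genes that lie in no host had summits at their starts most often. A pooled summit within 100 bp was found for 36 of 130 snoRNA genes without a host (27.7%, 20.2 to 36.2), for 24 of 172 in an intron of a host (14%, 9.15 to 20) and for 2 of 44 that overlap a host exon (4.55%, 0.555 to 15.5). The interval of the first group does not reach the value of the others. The single-library lists did not all give this order, and their intervals overlap. Within 100 bp the 3 groups stood at 11.5%, 8.14% and 18.2% in replicate 1, at 13.1%, 11.6% and 4.55% in replicate 2 and at 9.23%, 6.98% and 2.27% in replicate 4. Within 1000 bp the pooled shares were closer, at 74.6%, 69.2% and 52.3%. For snRNA genes the order was the other way round, with 2 of 43 without a host and 7 of 56 within a host, and these intervals overlap.

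**Figure D2:**
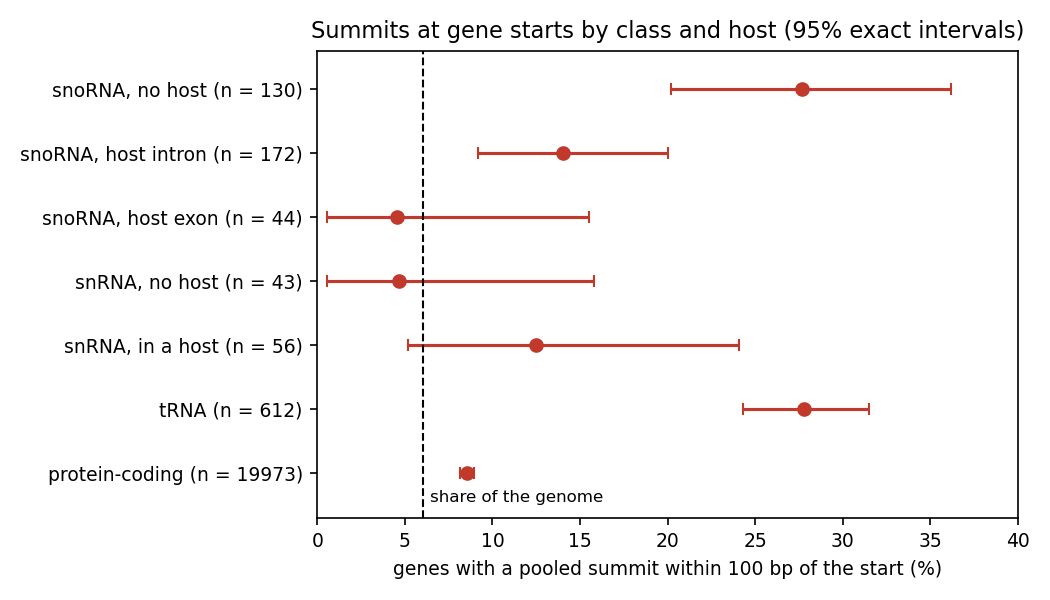
Share of genes with a pooled summit within 100 bp of the annotated start (horizontal axis, percent) by RNA class and host (rows, number of genes in brackets), with 95% exact intervals and the genome share of 6.01% as a dashed line. The snoRNA genes without a host lie near the tRNA genes at 27.7% and 27.8%.

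Members had partners in the single-library lists more often than pooled peaks in general. The pooled list was derived from the alignments of these same 3 libraries, so a partner is not an independent repeat of a pooled peak. A partner, meaning an overlap of at least 1 bp, was present in the list of replicate 1 for 33.8% of members and 23.8% of all pooled peaks, in replicate 2 for 54.1% and 40.5%, and in replicate 4 for 31.7% and 16.9%. The 3 libraries thus gave the same order. In all, 131 members (33.2%, 28.6 to 38.1) had a partner in 2 or more libraries, where the pooled list as a whole had 14.8%. A partner in all 3 libraries was found for 31 members (7.87%), against 2.15% of pooled peaks, and 85 members had none. The pooled peaks beside tRNA genes reached 31.1% for 2 or more libraries, and those beside protein-coding starts 16.4%.

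The list that the authors drew as reproducible holds 102 peaks, all of them also in the pooled list. It overlapped 9 members, beside 0.463% of all pooled peaks, and 8 of the 9 are themselves entries of the reproducible list. The RNA genes nearest to these 9 are 8 in number, and C51F7.3 and R151.12 lie within reach of 2 of the peaks as well.

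Members also ranked above the middle of the pooled list by the authors' signal, a value per peak of unstated scale. Ranked from the highest signal, the median member stood at 34.5% of the list. Of the 10000 pooled peaks with the highest signal, 195 were members, which is 49.5% of the members where the top holds 33.3% of the list. Peaks of high signal have partners more often whatever they lie beside, so the shares were also set side by side at like ranks. Among the first 1000 pooled ranks 86% of 50 members (73.3 to 94.2) and 79.5% of other peaks had partners in 2 or more libraries. The values were 45% (33.8 to 56.5) and 37.1% for the next ranks down to 5000. From there to rank 15000 they were 24.1% (17.1 to 32.2) and 13.2%, and for the rest 15.3% (9.58 to 22.6) and 5.25%. Down to rank 5000 the other peaks thus lay within the interval of the members, and the members stood above them only farther down. Ranked by the deposited q column in place of the signal, the median member stood at 53.8%, below the middle, so the position in the list depends on the column used.

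Presence in the libraries went with distance from the start. Of 69 members within 100 bp, 37 had partners in 2 or more libraries (53.6%, 41.2 to 65.7). The share was 34.6% of 81 members farther than 100 bp and up to 250 bp, 33% of 88 up to 500 bp and 23.7% (17.3 to 31.2) of 156 in the band beyond 500 bp. Each library alone showed the same direction from the nearest to the farthest band: 55.1% to 26.3% in replicate 1, 60.9% to 51.3% in replicate 2 and 43.5% to 24.4% in replicate 4. The median rank by signal went from 10.8% to 45.8% of the list. Pooled peaks beside tRNA genes ran from 47.6% to 10.7% over the same bands, and those beside protein-coding starts only from 19.3% to 13.4%.

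**Figure D3:**
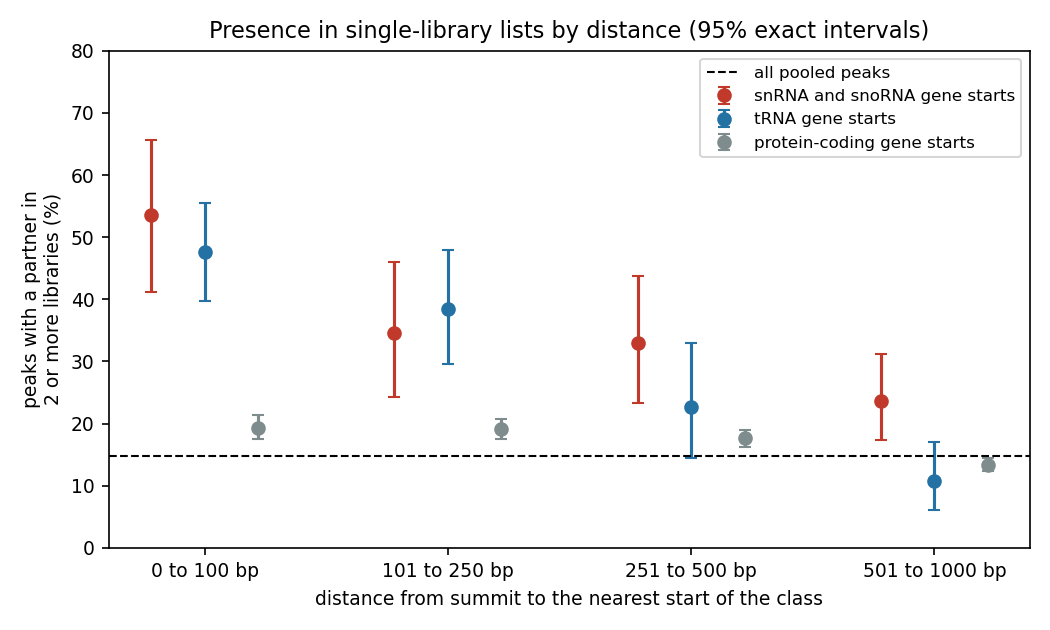
Share of pooled peaks with a partner in 2 or more single-library lists (vertical axis, percent, with 95% exact intervals) by distance from the summit to the nearest start of each gene class (horizontal axis), with all pooled peaks at 14.8% as a dashed line. Members and tRNA peaks start at 53.6% and 47.6% within 100 bp, and both are lower in the farther bands.

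Most members, 347 of 394, were nearest to a snoRNA gene, so most members with partners were too. With the nearest RNA gene as the class, 120 of 347 snoRNA members (34.6%, 29.6 to 39.8) and 11 of 47 snRNA members (23.4%, 12.3 to 38) had partners in 2 or more libraries, intervals that overlap. Of the 31 members found in all 3 libraries, 30 were nearest to a snoRNA gene. That is 8.65% of snoRNA members (5.91 to 12.1), beside 2.13% of snRNA members (0.0539 to 11.3), and these intervals overlap too. Those 31 belong to 24 RNA genes, since neighbouring pooled peaks can share a library peak, and 26 of them had their summit upstream of the RNA start. Members upstream (204), inside the RNA gene (39) and downstream (151) had partners in 2 or more libraries in 33.8%, 48.7% and 28.5% of cases.

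The highest members beside RNA genes in introns of host genes were as follows. The intron is that of the RNA gene, as the summits were not placed against exons and introns. The member of highest signal (chromosome II, 6842779 to 6843208) had its summit 246 bp upstream of C04A2.16, a snoRNA gene in an egl-27 intron. The nearest protein-coding start was 590 bp from this summit. This member had a pooled signal of 36 at rank 6. Its signal was 5.92, 14.6 and 12.7 in replicates 1, 2 and 4, at ranks 197, 24 and 7 of lists of 9666, 13663 and 6636 nuclear peaks. It thus stood far higher in the lists of replicates 2 and 4 than in that of replicate 1. Whether the transgene, which carries egl-27 sequence, includes this region is not stated, so that binding and added copies of the region cannot be told apart at this member.

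For several other host genes the member lay at the host's own promoter. The summit beside F54C9.12, a snoRNA gene in an intron of iff-2 (an eIF5A gene of translation), was 639 bp upstream of the snoRNA start but 44 bp from the start of iff-2 (chromosome II, 8561196 to 8561625). Its pooled signal was 29.2, and its library signals were 5.53, 13.7 and 8.09. The snoRNA gene C06A1.9 in cdc-48.1, which encodes the p97 segregase, had a summit 503 bp upstream of its start and 160 bp from the start of cdc-48.1, with a pooled signal of 24.5 and library signals of 4.99, 13.1 and 10.6. In replicates 1, 2 and 4 the iff-2 member stood at ranks 290, 29 and 60, and the cdc-48.1 member at ranks 499, 36 and 14. All 3 libraries held both peaks, and replicate 1 placed each of them lowest. R151.11 in rpl-6, a gene of a protein of the large ribosomal subunit, had a summit 481 bp upstream and 315 bp from the start of rpl-6, with a pooled signal of 20.4. Its ranks were 2866, 255 and 41 in replicates 1, 2 and 4, so replicate 1 placed it far down.

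In the other hosted members of the reproducible list beside snoRNA genes, D1046.6 and C51F7.4, the summit was close to the snoRNA. D1046.6, in an intron of cfim-2 (a subunit of pre-mRNA cleavage factor Im), had its summit 33 bp upstream of the start (chromosome IV, 8927017 to 8927446), a pooled signal of 22.7, and signals of 5.99 and 12.6 in replicates 1 and 2. The nearest protein-coding start was 248 bp from this summit, so it too lay near a promoter. C51F7.4, which overlaps an exon of frm-7 (a FERM domain protein), had its summit 16 bp inside the RNA gene, a pooled signal of 21.9, and signals of 7.15 and 11.9 in replicates 1 and 2. Neither had a partner in replicate 4.

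Among snoRNA genes without a host, W06H8.17 had the highest member, 260 bp upstream of the start. Its pooled signal was 24.6, and its library signals were 7.61, 7.73 and 7.58, at ranks 49, 541 and 73. It was the only reproducible member without a host. Next among those in all 3 libraries off chromosome I were C34E11.20 on the X chromosome (332 bp upstream, pooled signal 17.3) and F30H5.4 on chromosome III (72 bp upstream, 17). For C34E11.20 the library signals were 6.04, 4.81 and 7.22, and for F30H5.4 they were 6.53, 4.55 and 4.73. In both, the peak stood far lower by rank in replicate 2 (4077 and 5138) than in replicate 4 (92 and 505) or in replicate 1.

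ZK20.9 had 2 members in all 3 libraries, 866 and 50 bp upstream, with pooled signals of 15.7 and 12.7. The snoRNA gene Y23H5B.10 on chromosome I had a summit 40 bp inside the gene with a pooled signal of 18.5. Its replicate 4 signal of 2.29 stood at rank 5138 of that list, while replicates 1 and 2 both placed it at rank 279. F09G2.14 (pooled signal 15.3, 71 bp upstream) and T26A8.6 (14.1, 279 bp upstream) were also in all 3 libraries. So was W03C9.9, with a pooled signal of 13.7 and a summit 98 bp upstream. The F09G2.14 summit also lay near a protein-coding start, 265 bp away. T27A8.8 (13.9) was in all 3 as well, but only 66.1% of the 36-base words in its peak occur once in the genome.

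**Figure D4:**
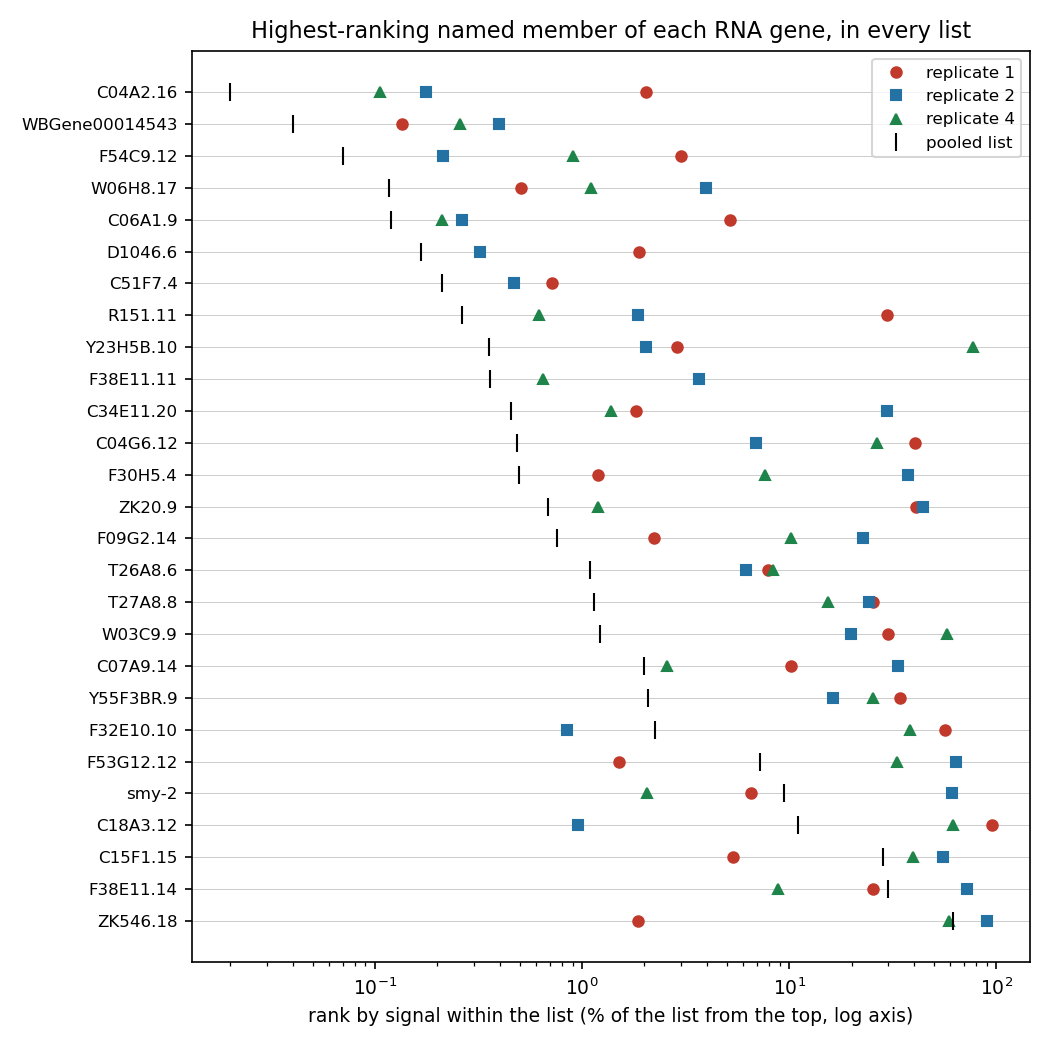
Rank by signal within each list, as a percentage of that list from the top (horizontal axis, log scale), for the highest-ranking named member of 27 RNA genes (rows, ordered by pooled rank), with a symbol for each replicate and a bar for the pooled list. The member of WBGene00014543 lies near the top of every list, and R151.11 and Y23H5B.10 are each far down in 1 library, replicate 1 and replicate 4.

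The host genes as a group were sampled widely. Of 272 RNA genes within hosts, in 227 host genes, 149 hosts had at least 1 RNA gene with a member and 54 had a member in 2 or more libraries. Members with a host (220, of which 176 on the same strand as the RNA and 44 on the other) and without one (174) were found in 2 or more libraries about equally, at 34.1% (27.9 to 40.8) and 32.2% (25.3 to 39.7).

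Ribosomal protein genes hosted 19 RNA genes in 13 hosts. Of these hosts 12 had a member and 4 (rpl-6, rpl-7, rps-12 and rps-13) had a member in 2 or more libraries. The members of rps-13 and rps-12 had pooled signals of 14 and 13.4 and were present in replicates 2 and 4 and not in replicate 1. The rpl-7 member, 274 bp from that host's start, had a pooled signal of 9.2 and was present in all 3. Of the 22 members with a ribosomal host, 18 (81.8%) had the summit within 500 bp of a protein-coding start, where members in general stood at 33.5% and the pooled list at 28%. Their share in 2 or more libraries, 31.8% (13.9 to 54.9), was close to that of all members. In such compact genes a summit near the snoRNA is also near the host promoter, and the positions alone cannot tell them apart.

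Of 3 translation factor hosts, iff-2 and eef-1G (elongation factor 1 gamma) had members in 2 or more libraries, and eif-4A3 with 2 snoRNA genes had none. The member of eef-1G had its summit 19 bp inside F17C11.14, with a pooled signal of 9.13. A further pooled peak, with a signal of 24.3 and partners in all 3 libraries, fell just outside the rule. Its summit lay 1008 bp upstream of the other eef-1G snoRNA gene, F17C11.15, and thus close to the start of eef-1G itself. The others just outside the rule lay at 1014 and 1017 bp with signals of 4.12 and 5.31. The 3 members just inside lay at 974, 981 and 982 bp with signals of 4.94, 7.54 and 3.93. The gene nol-56, which encodes a core protein of the C and D box snoRNA particles, hosts 4 snoRNA genes, of which 3 had a member. The highest had a signal of 9 and partners in replicates 1 and 2. This host was singled out after its values were seen.

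The snoRNA genes were also sorted by the letters at their ends, since the annotation gives no box class. Of 346, 58 had ACA 3 bases from the end, as H/ACA snoRNAs do, 15 had both TGATGA in the first 25 bases and CTGA in the last 25, as C and D box snoRNAs do, and 273 had neither. Members were found beside 48 of the 58 (82.8%, 70.6 to 91.4), all 15 (interval from 78.2) and 176 of the 273. With a reach of 100 bp the shares were 25.9% for the ACA genes and 7 of 15 (46.7%, 21.3 to 73.4) for the C and D genes. For the ACA genes the share was 10.3%, 17.2% and 1.72% in replicates 1, 2 and 4, the last close to the genome share of 1.33%. For the C and D genes it was 20%, 40% and 26.7%. The members of both groups had partners in 2 or more libraries somewhat more often (42.4% of 66 and 9 of 18) than the 263 beside genes with neither (31.6%), with intervals that overlap. Of the members beside ACA genes 53% had a protein-coding start within 500 bp, again more than members in general. C18A3.12, whose C and D box RNA is shown above, had a pooled signal of 8.33 but a signal of 10.1 at rank 130 in replicate 2, with 2.07 and 2.5 in replicates 1 and 4.

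The B box letters were concentrated just upstream of snoRNA genes. The letters GTTCGANNC were found within 100 bp of the start, on either strand, for 26 of the 445 RNA genes (5.84%, 3.85 to 8.44) and for 234 of 19973 protein-coding genes (1.17%). Of the 27 matches, counted per gene, 19 were upstream on the same strand as the RNA. The match of C51F7.4, 65 bp past its start, is the same stretch as that of C51F7.3, 44 bp upstream, and counts for both. In 17 genes, all of them snoRNA genes, the first base of the match lay 5 to 27 bp before the annotated start. That is 4.91% of snoRNA genes (2.89 to 7.75), 0 of 99 snRNA genes (interval up to 3.66%) and 9 of the protein-coding genes (0.0451%). Of the 17 genes 9 had no host.

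Most of these genes had a pooled peak at the start. A summit within 100 bp was found for 11 of the 17 (64.7%, 38.3 to 85.8) and for 60 of the other 428 RNA genes (14%, 10.9 to 17.7). A member in 2 or more libraries was found for 11 of the 17 and for 95 of the 428 (22.2%, 18.3 to 26.4). In the single-library lists, a summit within 100 bp was found in replicate 1 for 8 of the 17 (47.1%, against 7.01% of the others), in replicate 2 for 6 (35.3% against 10%) and in replicate 4 for 2 (11.8% against 6.78%, with intervals that overlap). None of the 17 had such a summit in all 3 libraries, and 6 had none.

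By pooled signal the highest of them were F30H5.4 (17), T27A3.9 (13.9), W03C9.9 (13.7), C41C4.11 (12.7) and F32E10.10 (11.9), none with a host. F32E10.10, with the letters 11 bp before its start and the summit 13 bp after it, had library signals of 2.66, 10.5 and 3, high in replicate 2 alone. C41C4.11, on the minus strand, had 3.87 and 7.08 in replicates 1 and 2 and no partner in replicate 4. Within hosts, F11A10.9 lies in rbm-34, an RNA-binding protein gene, with the letters 20 bp upstream and a pooled signal of 10.6. ZK546.18 lies in mdt-4, a Mediator subunit gene, with the letters 12 bp upstream and 9.97. T24H7.6 and Y59E1B.14 carry the letters 17 and 12 bp upstream and had no member.

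**Figure D5:**
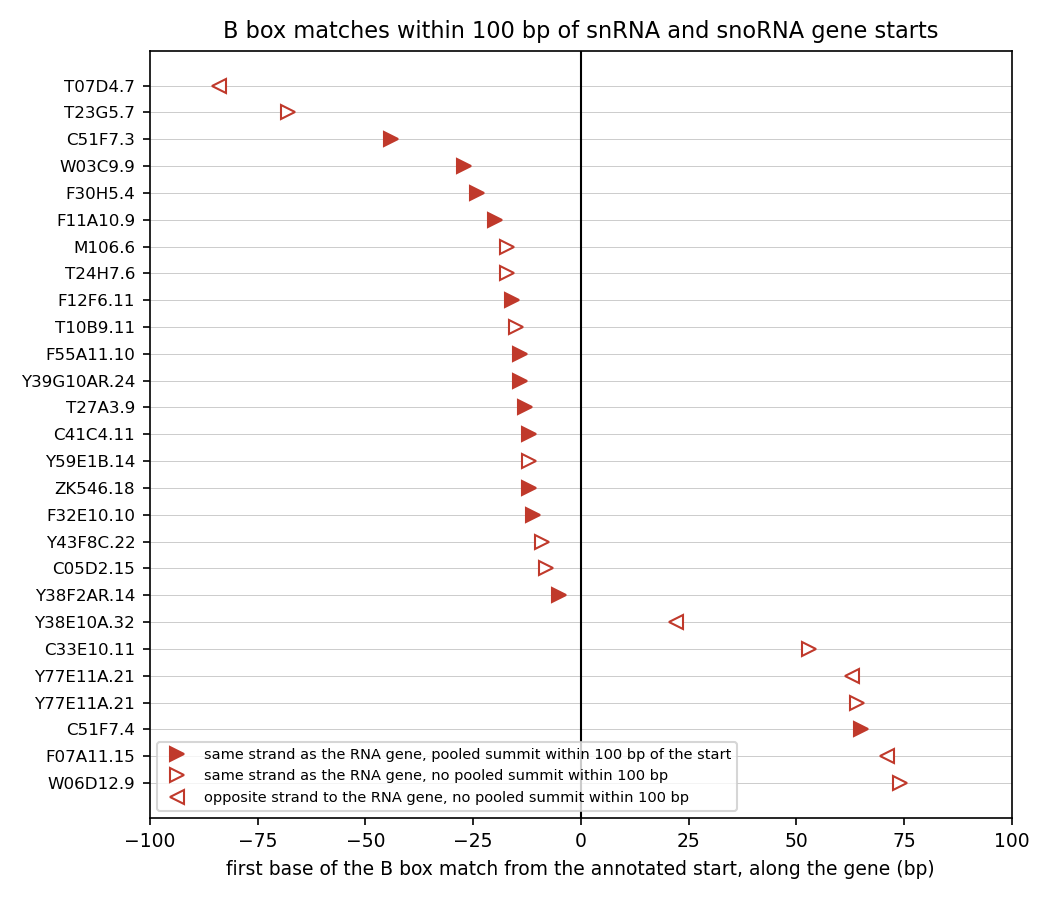
Position of the first base of each B box match along the gene (horizontal axis, bp from the annotated start, negative upstream) for the 26 RNA genes with a match (rows), with filled triangles where a pooled summit lay within 100 bp of the start and right-pointing triangles for matches on the strand of the RNA. The 17 genes with a match 5 to 27 bp upstream form a column, and 11 of them are filled.

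Seen from the peaks, 21 members (5.33%) held the B box letters within 100 bp of the summit, where the pooled list had 1.94%. For members within 100 bp of the start the share was 12 of 69 (17.4%, 9.32 to 28.4), and beyond 500 bp it was 2.56%. Peaks within 100 bp of tRNA starts, where the B box is part of the gene, had 53.6%. The 12 members had partners in 2 or more libraries in 9 cases (75%, 42.8 to 94.5), and the 57 without the letters at the same distance in 49.1% (35.6 to 62.7). Elsewhere the shares were those of the list: of 439 pooled peaks that held them beside neither tRNA genes nor members, 12.5% had partners in 2 or more libraries, beside 14.8% for the list. The A box letters TGGCNNAGT were found in 11.6% of members within 100 bp of a start and in 2.01% of pooled peaks. This exact form rarely stood with the B box letters: 1 of the 12 members held both, and 7 of the 57 without B box letters (12.3%) held it. Peaks within 100 bp of tRNA starts, where the A box is part of the gene, held these letters in only 8.43%. A window without them may thus still hold another form of the A box, which was not searched. Both sets of letters were chosen after windows had been read, so these shares are descriptions.

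The letters GAGAGA, on either strand within 100 bp of the summit, were found in 67 members (17%, 13.4 to 21.1) and 14.2% of pooled peaks, within that interval. They were more frequent beside snoRNA genes without a host (25.8% of 155 members, 19.1 to 33.4) than beside those in introns (11.2% of 169, 6.91 to 17). Members with GAGAGA had partners in 2 or more libraries in 43.3% (31.2 to 56) and those without in 31.2% (26.2 to 36.5). The pooled list showed the same order, 23.2% and 13.4%. GGGCGG was found in 9 of the 69 members within 100 bp of a start (13%, 6.14 to 23.3) and in 3.78% of pooled peaks. At the 160 RNA gene starts without a member it was found in 8.12%, within that interval. None of those 9 was among the 12 with B box letters. They include D1046.6, Y23H5B.10, C18A3.12 and the SmY gene smy-2. TTTCAAA was less frequent in members than in the list, found in 20.8% of members (16.9 to 25.2) and 26.2% of pooled peaks. The GATA forms TGATAA and AGATAA were found in 16.2% (12.7 to 20.3) and 8.88% (6.27 to 12.1) of members, with 18.8% and 11.5% in the list, inside these intervals. Within 100 bp of a start they stood at 8.7% (3.26 to 18) and 2.9% (0.353 to 10.1), below the list. At RNA gene starts without a member they stood at 8.75% and 7.5%, within these intervals. The E box CACGTG was at 4.31% and 3.9%, within the interval of the members (2.53 to 6.82).

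The snRNA members were fewer and rested on repeated genes. The highest lay 107 bp downstream of the start of WBGene00014543, an RNA gene in an intron of dhc-4 (a dynein heavy chain gene), and 6 bp beyond its end. This member had a pooled signal of 31.7 at rank 12. Its library signals were 9.4, 12.4 and 10.5 at ranks 13, 54 and 17, among the top of every list. The gene is 1 of 14 identical copies of 102 bases that share the annotated name R07E5.16 (RefSeq names this copy W05B2.8). No 36-base word of the RNA occurs once in the genome, and 81.8% of the words of the peak do. Reads of up to 36 bases that lie within the RNA thus cannot be assigned to this copy. The 6 identical copies within the gene mam-3 had no member. In the wider group of 23 snRNA genes at 80% identity or more, 9 had a member and 1, the dhc-4 copy, had a member in 2 or more libraries.

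Only 19 of the 99 snRNA genes consist entirely of 36-base words that occur once in the genome, and 36 have no such word, where 304 of 346 snoRNA genes are entirely of such words. Among genes with only unique words the shares with a member were 52.6% of 19 snRNA genes (28.9 to 75.6) and 72% of 304 snoRNA genes (66.6 to 77). The peaks themselves were mostly unique: in 334 of 394 members every word occurs once, and in 2 fewer than 50% do. How the authors treated reads with several matches is not stated in the material used, and its part in the low snRNA share was not tested.

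F38E11.11, an snRNA gene of another family of 12 similar genes, had the next highest snRNA member, 231 bp downstream of its start (WBGene00014366, pooled signal 18.4), with signals of 7.85 and 8.9 in replicates 2 and 4 and no partner in replicate 1. The SmY RNAs are small nematode RNAs bound by Sm proteins and linked to trans-splicing. Of 12 smy genes 9 had a member (75%, 42.8 to 94.5), where all RNA genes stood at 64% and the genome at 46.1%. Only smy-1 and smy-2, both in C33A12.3, had a member with partners in more than 1 library. Each had 3 members within reach, the highest with a pooled signal of 9.5. The member between them, with a lower signal, had partners in all 3 libraries. Its nearest gene, smy-2, is annotated as a snoRNA gene, so this member counts among the snoRNA members. The summit lay 99 bp upstream of smy-2, with a pooled signal of 8.66 and library signals of 4.71, 3.87 and 6.46. The genes sup-6 and sup-39, which are annotated as snRNA genes and lie in a family of 13, had members 26 bp inside and 76 bp upstream of their starts with pooled signals of 12.1 and 8.43, in replicates 1 and 4 and in replicates 2 and 4.

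The share of RNA genes with a member was 67.4% on chromosome I, 64.3% on II, 72.1% on III, 54.7% on IV, 66.3% on V and 61.1% on the X chromosome. Of the 160 RNA genes with no pooled summit within 1000 bp, 22 had a summit in the list of replicate 1, 13 in replicate 2 and 11 in replicate 4. Of the members, 6 also lay within 1000 bp of a tRNA gene start.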

How the data were processed

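ChIP-seq peak lists of GFP-FLAG-tagged EGL-27 in L4 larvae were used as the authors deposited them, on build ce11 (WBcel235): 3 single-library lists, a pooled list and a reproducible list. Column 7 is a signal per peak and the q column a score, as deposited by the authors; neither scale is given in the sources used here, nor are the aligner and peak caller. Signals were ranked within a list only.

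Genes came from Ensembl release 115. Members and partners (overlap of 1 bp or more) were found with Python 3.11.15 (pandas 2.3.3, numpy 2.4.6), and 95% exact Clopper-Pearson intervals with scipy 1.17.1. The steps were tested on planted peaks. No test was run, as there is 1 group. Identity groups used 80% of aligned bases, and uniqueness used 36-base words. In all 8 sequences were searched on both strands (the GA repeat GAGAGA, the E box CACGTG, the GC box GGGCGG, the GATA forms TGATAA or AGATAA, then TTTCAAA, then the B box letters GTTCGANNC, then the A box letters TGGCNNAGT). Named genes are those of members in the reproducible list, in all 3 libraries or among the 10 highest signals; others were chosen after their values were seen. The members and lists were chosen with earlier results of these data known. Distance bands, rank bins, box letters, the B box and A box letters and the printed windows were chosen after seeing the data; some windows are not reported here. Alternatives changed distance, overlap rule, list depth, ranking column, uniqueness and the libraries used.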

Additional observations from a re-analysis of the deposited data

How the results depend on the processing

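The number of members was 238 with a reach of 500 bp, 680 with 2000 bp and 195 among the 10000 highest pooled signals. RNA genes with a member made up 47.4% at 500 bp, 81.1% at 2000 bp, 39.6% with the 10000 highest signals and 70.9% among genes of unique words. The share of members in 2 or more libraries was 13.2% with summits within 100 bp, 23.9% with a reciprocal overlap of 50% and 20.1% with the 5000 highest signals of each library. It was 11.7 to 19% without 1 replicate, where both others had to hold a partner. Pooled peaks then stood at 5.4%, 9.65%, 6.26% and 4.56 to 8.12%, below the members each time. The median rank percentile was 21.2 at 500 bp and 53.8 with the q column. GAGAGA was in 8.38% of members within 50 bp (pooled 7.73%) and in 27.7% within 200 bp (24.3%). The other 7 alternatives stayed within the interval of the main value or within 1.5 times a count. They include 1 peak per merged region (30.5%), leaving out peaks beside the RNA gene in egl-27 (32.9%), 1 gene per identity group (68.3%) and leaving out peaks near a tRNA or spliced leader RNA start (33.2%). These 4 and the q column were added after seeing the data. Ranking by the p column gave no value, because it holds a single number. No paired analysis was possible because there is 1 group. Unknown depth, a control not analysed here and background within the pooled list limit what a member shows.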
